A study of Mus musculus with 6 samples.

Results

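The genes described here are 32 genes of cholesterol synthesis, uptake, storage and efflux, followed in mouse Lin-CD117+ bone marrow cells cultured with or without glycyrrhizic acid (GA). They were chosen by symbol, and all 32 listed symbols were found among the 18121 genes of the expression table. They comprise 7 enzymes of the mevalonate stage, 11 enzymes of the sterol stage, 5 genes that control SREBP transcription factors, 4 genes of sterol transport and storage, and 5 genes of the liver X receptor (LXR) and efflux arm. All 32 passed the filter on low values, a mean of at least 1 FPKM (fragments per kilobase of transcript per 1000000 mapped fragments) over the 6 libraries.

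Animal cells build cholesterol from acetyl-CoA through mevalonate, farnesyl diphosphate and squalene. When sterols in the endoplasmic reticulum membrane are scarce, SCAP carries SREBP proteins to the Golgi, where they are cut and released to switch on the synthesis and uptake genes, whereas INSIG proteins hold SCAP back when sterols are plentiful. When oxysterols accumulate, LXR proteins switch on cholesterol export and a ligase that removes the LDL receptor. In hematopoietic stem and progenitor cells, cholesterol efflux through ABCA1 and ABCG1 is known to restrain proliferation and myeloid output.

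GA, a triterpenoid saponin of licorice root, was added to the cells for 24 h in the GA group (3 libraries), and the Ctrl group (3 libraries) was kept in normal culture. The study's methods describe Lin-CD117+ cells as marrow cells of C57BL/6 mice aged 8 weeks, depleted of lineage-positive cells and then selected for CD117, and the study names them hematopoietic stem cells (HSCs). The GA concentration of this experiment was not given in the sources used here. The labels do not say whether the replicates were independent animals or cultures. The p-values therefore refer to the spread among these 6 samples alone, which could be technical.

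Markers bore on the name HSC in both directions. *Kit*, which encodes CD117, had 16.04, 20.35 and 21.20 FPKM in GA libraries, against 19.57, 17.05 and 17.83 FPKM in Ctrl libraries. *Mecom*, a transcription factor of stem cells, did not exceed 0.73 FPKM in any library. The 13 megakaryocyte and platelet markers summed to 20030 to 27330 FPKM in GA and 22160 to 22850 FPKM in Ctrl, so RNA of that lineage was abundant. In bulk RNA of this kind, fewer cells of a type and less RNA per cell cannot be told apart. GA replicate 1 was set off from the remaining 5 libraries, at -14.97 on a first principal component on which the others lay between -0.25 and 5.82. Its deviation from the Ctrl mean fell with transcript length (Spearman rho of -0.59 across genes, against -0.31 and -0.18 in GA replicates 2 and 3). The Ctrl libraries had -0.06 to 0.07, but they define that mean, so values near 0 follow in part from it. Results that rest on GA replicate 1 are therefore given with and without that library.

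The cholesterol genes were well expressed in both groups. Of the 32, 27 lay above the median of all tested genes, 12.72 FPKM. FPKM is a level per transcript length, so genes can be ranked on it. *Fdps*, the synthase that makes farnesyl diphosphate, was the highest, with a mean of 271.3 FPKM over the 6 libraries, above 97.46% of tested genes. *Msmo1*, a sterol methyl oxidase (117.6 FPKM), *Srebf2*, which encodes SREBP-2 (83.29 FPKM), *Nr1h2*, which encodes LXR beta (71.04 FPKM), and *Sqle*, squalene epoxidase (66.93 FPKM), came next. *Fdps* and *Msmo1* overlapped with no neighbour in this order, whereas 24 of the 31 neighbouring pairs had overlapping ranges over the libraries. The lowest were *Insig2* (7.627 FPKM) and *Nr1h3*, which encodes LXR alpha (3.233 FPKM).

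**Figure D1:**
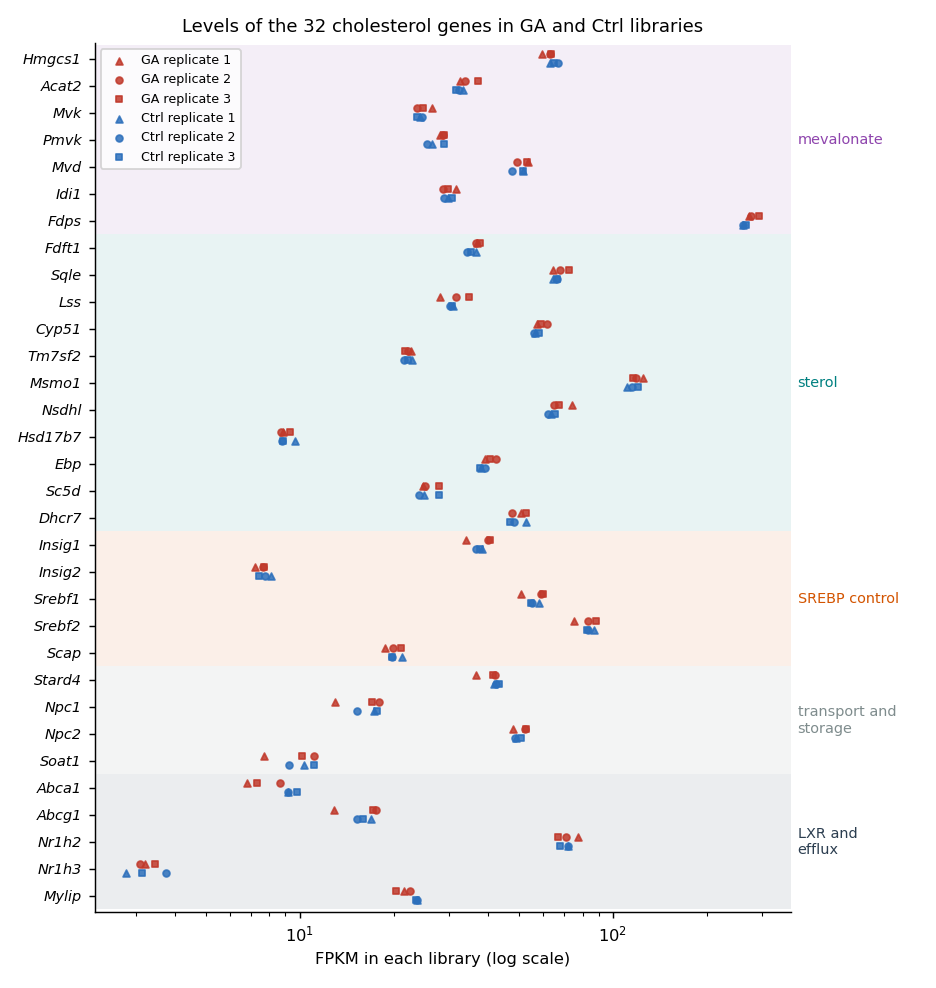
FPKM of each of the 32 genes on a log axis, with GA libraries (red) above Ctrl libraries (blue) for every gene and marker shapes for replicates 1, 2 and 3. The genes run from *Nr1h3*, with a mean of 3.233 FPKM, to *Fdps*, with 271.3 FPKM, and the GA and Ctrl points of most genes overlap.

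The main question was whether 24 h of GA changed these genes. No cholesterol gene passed the test, nor did any other gene: limma on log2(FPKM + 1) called 0 of 10912 genes (0%) at a Benjamini-Hochberg adjusted p under 0.05. The smallest adjusted p among the 32 was 0.2396, for *Abca1*, and the smallest over all genes was 0.1346. At an unadjusted p under 0.05, 0 of the 32 were higher in GA, where 8.88% of all tested genes were, and 2 (6.25%), *Abca1* and *Mylip*, were lower, where 4.63% of all tested genes were. GA and Ctrl libraries were fully separated for 2 higher genes (6.25%), *Fdps* and *Fdft1*, beside 11.6% of all tested genes, and for 2 lower genes, *Abca1* and *Mylip* again, beside 8.29%. Both shares of higher genes lay under those of all tested genes, and for lower genes the first lay above and the second under. The median log2 fold change was 0.02 over the 32 genes and 0.01 over all tested genes, with 20 of the 32 above 0 and 12 below. With 3 libraries against 3, an exact two-sided permutation test cannot go below 0.1, so none was used for single genes.

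**Figure D2:**
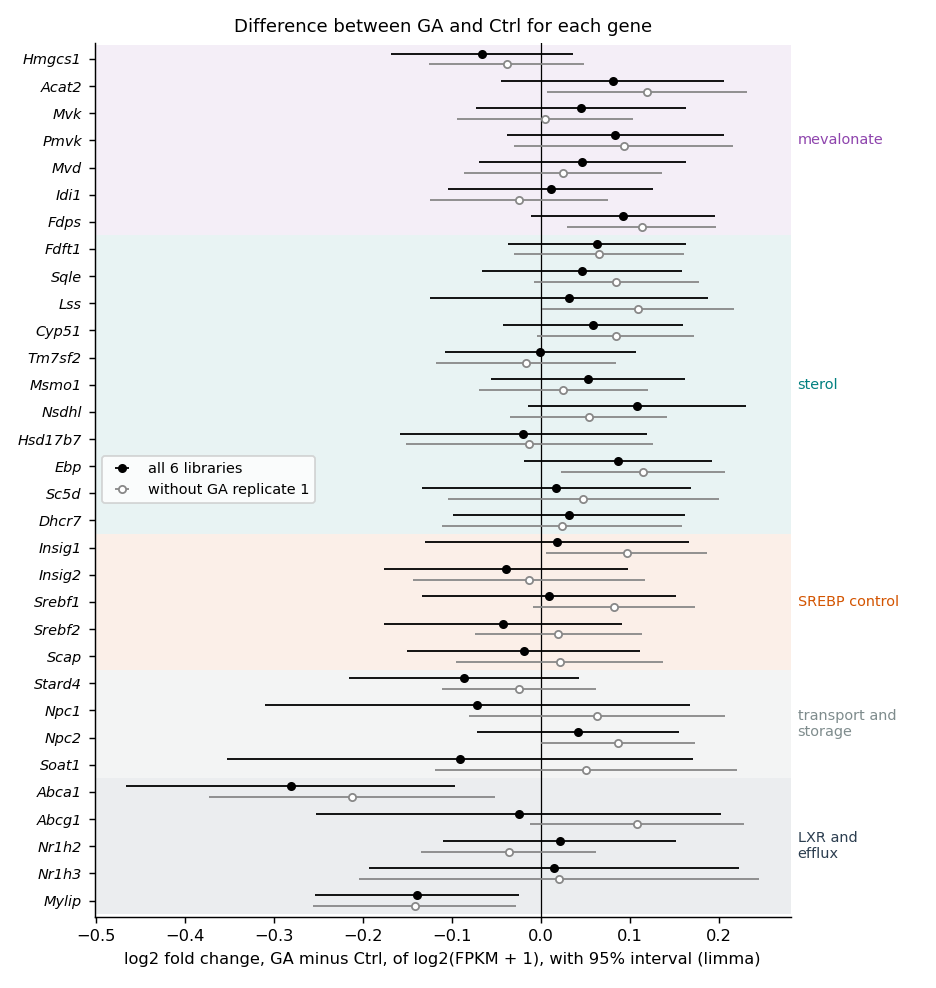
Log2 fold change (GA minus Ctrl, on log2(FPKM + 1)) of each gene with its 95% interval from limma, for all 6 libraries (filled) and without GA replicate 1 (open). With all libraries, the intervals of 30 genes include 0, and those of *Abca1* and *Mylip* lie below it.

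The enzymes of the pathway had small positive differences. Of the 18, 15 had a log2 fold change above 0, where 5981 of all 10912 tested genes did, and 3 below. The enzyme median was 0.05, the range was -0.07 to 0.11, and the 95% intervals reached from -0.17 to 0.23 at their extremes. Differences beyond these bounds lay outside the interval of every enzyme, and smaller ones could not be resolved. Their FPKM summed to 1035, 1029 and 1069 in GA libraries, against 998.5, 992.2 and 1018 in Ctrl libraries. The 3 GA sums lay above the 3 Ctrl sums. This separation depended on the scale, since the libraries differ in their FPKM totals (515444 to 555449 in GA and 508672 to 511802 in Ctrl). Per 1000000 FPKM of a library, the enzymes took 1863, 1960 and 2074 in GA, against 1963, 1939 and 1993 in Ctrl, which overlap. When every library was rescaled to 1000000, 7 of the 18 enzymes were above 0 and their median was -0.01. The share of higher genes among all genes at an unadjusted p under 0.05 was then 25.54%, compared with 65.74% on the deposited scale. The median over all tested genes was -0.04 when rescaled. The enzyme median lay 0.03 above that of all genes on both scales. With scaling by median of ratios or by a trimmed mean, 15 of the 18 were above 0, with a median of 0.04. With the length trend removed, 14 were above 0, with a median of 0.02. With GA replicate 1 also left out, 10 were above 0, and the median of 0.02 lay 0.01 above that of all genes. The difference between the enzymes and all genes was not tested.

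In the mevalonate stage, the *Hmgcs1* product condenses acetoacetyl-CoA with acetyl-CoA to HMG-CoA. *Hmgcs1* had 59.48, 62.74 and 63.50 FPKM in GA, against 63.16, 66.78 and 64.62 FPKM in Ctrl. GA replicate 1 was the lowest library and the groups overlapped, with a log2 fold change of -0.07 (SE 0.05), the lowest among the enzymes, and of -0.04 without GA replicate 1. *Fdps* had 271.77, 275.71 and 292.64 FPKM in GA, against 259.93, 260.61 and 266.94 FPKM in Ctrl. All 3 GA libraries lay above all 3 Ctrl libraries, by a log2 fold change of 0.09 (SE 0.05, limma with Benjamini-Hochberg adjusted p = 0.42), or 6.69%. With the trend on transcript length removed from each library, the value was 0.02, and with every library rescaled to 1000000 it was 0.03.

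The other mevalonate genes differed by 6.07% or less between group means, and their groups overlapped. *Acat2*, the cytosolic thiolase that makes acetoacetyl-CoA, averaged 34.4 ± 2.4 FPKM in GA and 32.4 ± 0.8 FPKM in Ctrl (SD, n = 3 each). *Mvk* (mevalonate kinase) averaged 25.0 ± 1.4 FPKM in GA and 24.2 ± 0.5 FPKM in Ctrl, and *Pmvk* (phosphomevalonate kinase) 28.5 ± 0.4 FPKM in GA and 26.9 ± 1.7 FPKM in Ctrl. *Mvd* (the decarboxylase that yields isopentenyl diphosphate) and *Idi1* (its isomerase) had log2 fold changes of 0.05 and 0.01.

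In the sterol stage, *Fdft1* (squalene synthase) had 36.87, 36.50 and 37.54 FPKM in GA, against 36.44, 34.30 and 35.32 FPKM in Ctrl. The lowest GA library lay just above the highest Ctrl library, and the log2 fold change was 0.06 (SE 0.04, limma with Benjamini-Hochberg adjusted p = 0.59). With every library rescaled to 1000000, the log2 fold change of *Fdft1* was 0.0058. *Sqle*, the next enzyme, had 64.35, 67.62 and 72.18 FPKM in GA, against 64.47, 66.46 and 66.52 FPKM in Ctrl. GA replicate 1 was the lowest and GA replicate 3 the highest library for *Sqle*, so its groups overlapped. *Msmo1* had 124.55, 118.60 and 116.28 FPKM in GA, against 110.65, 115.02 and 120.63 FPKM in Ctrl, and here GA replicate 1 was the highest library.

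Of the remaining sterol enzymes, *Nsdhl*, a dehydrogenase that works with *Msmo1* in removing the C-4 methyl groups, had the highest log2 fold change of the 32 genes, 0.11 (SE 0.05, limma with Benjamini-Hochberg adjusted p = 0.43). It averaged 68.7 ± 4.7 FPKM in GA and 63.6 ± 1.7 FPKM in Ctrl (SD, n = 3 each), and the highest of the 6 libraries was GA replicate 1. Without that library its log2 fold change was 0.05, behind those of *Acat2* (0.12), *Ebp* (0.12) and *Fdps* (0.11). *Ebp* (a sterol isomerase) and *Cyp51* (lanosterol demethylase) had 0.09 and 0.06. *Lss* (lanosterol synthase), *Dhcr7* (the reductase of the final step) and *Sc5d* (a sterol desaturase) had 0.02 to 0.03, and *Tm7sf2* (a sterol reductase) and *Hsd17b7* (the keto reductase of C-4 demethylation) had 0.00 and -0.02. The groups overlapped for all of these.

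The promoter of *Hmgcs1* is printed because it was the only one of the genes examined that held the 9-letter sterol regulatory element searched for, the class of site that SREBP proteins bind. Sequences came from RefSeq (GRCm38.p6), whose table covered 26 of the 32 genes, in windows of 250 bases before to 50 bases after the start. Motifs were read on both strands, and a match describes letters only. The 200 bases before the start at chr13:119690151-119690350 (plus strand) follow, with every searched motif in capitals. The capitals from -158 to -143 match only a wider search for LXR sites, described below with *Abca1* and added after the *Abca1* sequence was seen.
Hmgcs1: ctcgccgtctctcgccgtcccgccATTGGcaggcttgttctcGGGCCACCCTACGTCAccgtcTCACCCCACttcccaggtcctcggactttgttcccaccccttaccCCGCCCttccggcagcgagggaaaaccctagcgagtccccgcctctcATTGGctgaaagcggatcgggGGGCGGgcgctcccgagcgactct

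Shares are of genes, and a gene counted if any of its promoters held the motif, so genes with more promoters had more chances. The element TCACNCCAC stands from -137 to -129 of *Hmgcs1* and was in 1 of 26 genes (3.85%), beside 1.35% of the 8910 tested genes with a promoter. CCAAT, the box bound by NF-Y, was in 21 of 26 (80.8%), beside 43.4%. GGGCGG, the GC box, was in 23 of 26 (88.5%), beside 68.9%. For the sterol stage, all 9 enzyme genes covered had CCAAT and GGGCGG in at least 1 promoter, though not every promoter of *Dhcr7* held them.

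The 5 genes that control SREBP had log2 fold changes of -0.04 to 0.02 with all 6 libraries. *Srebf2*, whose product drives the synthesis genes, had 75.11, 83.04 and 88.23 FPKM in GA, against 87.14, 83.27 and 82.94 FPKM in Ctrl. *Srebf1*, whose products favour fatty acid synthesis, had 50.77, 58.91 and 59.66 FPKM in GA, against 58.04, 55.28 and 54.56 FPKM in Ctrl. For both, GA replicate 1 was the lowest library and GA replicate 3 the highest, and the log2 fold changes were -0.04 for *Srebf2* and 0.01 for *Srebf1*, or 0.02 and 0.08 without GA replicate 1. The ratio of *Srebf2* to *Srebf1*, a comparison chosen after the values were seen, was 1.410 to 1.479 in GA and 1.501 to 1.520 in Ctrl, with no overlap.

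*Scap*, the escort of SREBP, had 18.75, 19.85 and 21.10 FPKM in GA, against 21.18, 19.63 and 19.69 FPKM in Ctrl. *Insig1*, itself a target of SREBP and a retention factor, had 33.92, 39.86 and 40.36 FPKM in GA, against 38.24, 36.43 and 37.70 FPKM in Ctrl. GA replicates 2 and 3 lay above all Ctrl libraries for *Insig1*, and GA replicate 1 below them. The log2 fold change of *Insig1* was 0.02 with all libraries and 0.10 without GA replicate 1. *Insig2*, the second retention factor, had 7.21, 7.64 and 7.68 FPKM in GA, against 8.07, 7.74 and 7.42 FPKM in Ctrl, which overlap. *Insig1* stood at 4.71 to 5.26 times the FPKM of *Insig2* in GA and 4.71 to 5.08 times in Ctrl, a ratio likewise chosen after the values were seen.

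The genes of transport and storage were all lowest in GA replicate 1. *Stard4*, a soluble sterol carrier, averaged 40.0 ± 3.0 FPKM in GA and 42.4 ± 0.8 FPKM in Ctrl (SD, n = 3 each). *Npc1*, the membrane protein that passes cholesterol out of lysosomes, averaged 15.97 ± 2.64 FPKM in GA and 16.7 ± 1.3 FPKM in Ctrl, and *Soat1*, which esterifies cholesterol for storage, 9.64 ± 1.78 FPKM in GA and 10.2 ± 0.9 FPKM in Ctrl. *Npc2*, the luminal partner of *Npc1*, averaged 51.0 ± 2.8 FPKM in GA and 49.5 ± 1.2 FPKM in Ctrl. The groups overlapped for all 4. The log2 fold changes of *Npc1* and *Soat1*, -0.07 and -0.09, turned to 0.06 and 0.05 without GA replicate 1.

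The list of monocyte and macrophage markers was lowest, by its median, in GA replicate 1 and Ctrl replicate 2. The median deviation of that list from the Ctrl mean, on log2(FPKM + 1), was -0.21, 0.15 and 0.05 in GA replicates 1, 2 and 3, and 0.08, -0.14 and 0.07 in Ctrl replicates 1, 2 and 3. GA replicate 1 and Ctrl replicate 2 were the lowest pair of libraries for *Npc1* (12.97 and 15.27 FPKM), *Soat1* (7.66 and 9.25 FPKM) and *Abcg1* (12.89 and 15.23 FPKM) as well. GA replicate 1 alone was the lowest library for 38.8% of all tested genes, and the share with this pair lowest was not counted. These genes are 5224, 8371 and 5832 nt long, and values in GA replicate 1 fell with length. The markers *Ly6c2* and *Cd14* did not have this pair lowest. The 12 markers summed to 470.7 to 534.6 FPKM in GA and 409.9 to 498.5 FPKM in Ctrl. Of its 10 tested members, 3 had a log2 fold change above 0 and 7 below, and *Cd163* and *Vcam1* stayed at or under 1.05 FPKM. Their part in the values of the transport genes was not tested.

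The LXR and efflux arm held the lowest differences of the gene set. *Abca1* encodes the exporter that loads cholesterol onto apolipoprotein A-I. It had 6.76, 8.63 and 7.32 FPKM in GA, against 9.16, 9.16 and 9.80 FPKM in Ctrl. All 3 GA libraries lay below all 3 Ctrl libraries, with a mean 0.808 times that of Ctrl and a log2 fold change of -0.28 (SE 0.08, 95% interval -0.47 to -0.10). It did not pass the correction over all genes (limma with Benjamini-Hochberg adjusted p = 0.24, and 0.14 to 0.58 over 17 alternative settings). The unadjusted p was under 0.05 in all 17 of those settings, with log2 fold changes from -0.37 to -0.19, and without GA replicate 1 the value was -0.21.

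*Mylip* encodes the ligase, also called IDOL, that marks the LDL receptor for degradation. It had 21.45, 22.43 and 20.26 FPKM in GA, against 23.73, 23.70 and 23.44 FPKM in Ctrl. The GA libraries again lay below every Ctrl library, with a mean 0.905 times that of Ctrl and a log2 fold change of -0.14 (SE 0.05, 95% interval -0.25 to -0.02, limma with Benjamini-Hochberg adjusted p = 0.30). The adjusted p ran from 0.16 to 0.61 over the 17 settings, and the unadjusted p was under 0.05 in 13 of them. The 4 settings in which it was not left out GA replicate 3 or 1 of the Ctrl libraries.

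The rest of the LXR and efflux arm did not behave in this way. *Abcg1*, which exports cholesterol to HDL particles, had a log2 fold change of -0.02 (SE 0.10), averaging 15.85 ± 2.57 FPKM in GA and 16.01 ± 0.83 FPKM in Ctrl (SD, n = 3 each), and 0.11 without GA replicate 1. Within each library, the ratio of *Abcg1* to *Abca1* was 1.91 to 2.34 in GA and 1.62 to 1.84 in Ctrl, with no overlap. This ratio, like that of both receptors, was chosen after the values were seen. *Nr1h2*, the more abundant receptor, had 77.45, 70.63 and 66.78 FPKM in GA, against 71.76, 72.02 and 67.61 FPKM in Ctrl. *Nr1h3* had 3.21, 3.09 and 3.44 FPKM in GA, against 2.79, 3.74 and 3.13 FPKM in Ctrl. Both receptors overlapped between the groups, with *Nr1h2* at 19.4 to 24.1 times the FPKM of *Nr1h3* in GA and 19.3 to 25.7 times in Ctrl.

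**Figure D3:**
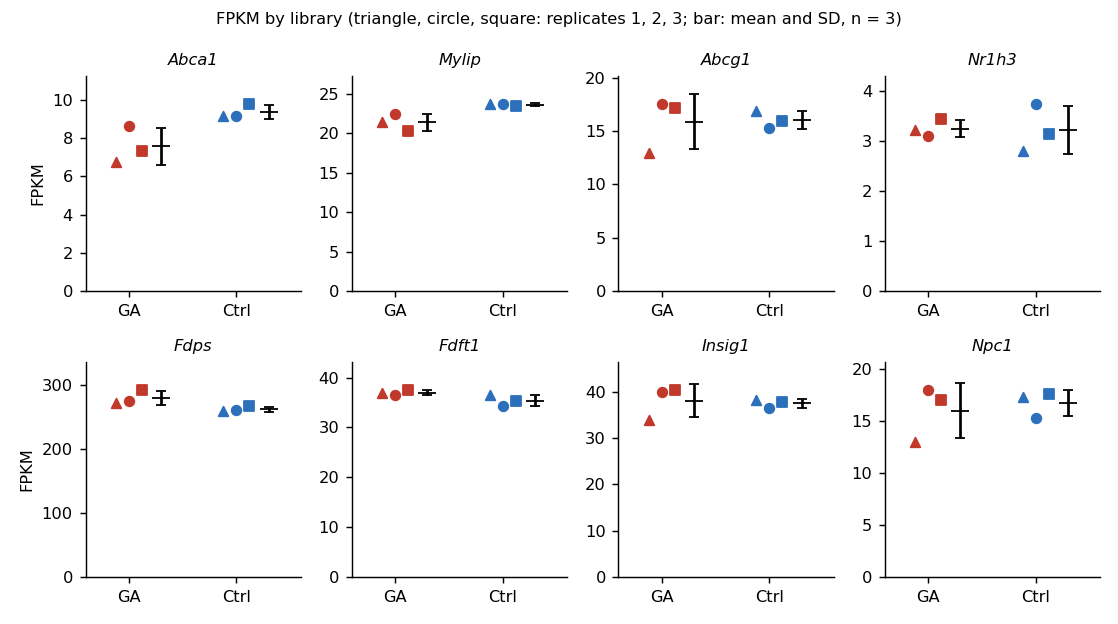
FPKM per library for 8 genes, with GA left and Ctrl right in each panel, marker shapes for replicates 1 (triangle), 2 (circle) and 3 (square), and bars for the mean and SD (n = 3). The GA points of *Abca1* (6.76 to 8.63 FPKM) and *Mylip* lie below all Ctrl points, those of *Fdps* and *Fdft1* above, and the other 4 genes overlap.

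The promoters of *Abca1* and *Mylip* are printed because these genes had the lowest differences. LXR binds DR4 elements, here 2 copies of AGGTCA separated by 4 bases with at most 2 mismatches in all, on either strand. With that rule, 0 of the 4 LXR and efflux genes covered had a match, 1 of 26 cholesterol genes did (*Dhcr7*, 3.85%), and 2.66% of tested genes did. After the *Abca1* sequence was seen, the limit was widened to 3 mismatches, which brought in a match at -67 to -52 of *Abca1*. That wider rule matched 8 of 26 genes (30.8%), *Hmgcs1* among them, and 20.8% of tested genes, so such a match is common. The letters alone cannot say whether LXR binds at any of them, and sites outside these windows were not searched. The 200 bases before each start follow, at chr4:53159896-53160095 (minus strand) for *Abca1* and chr13:45389542-45389741 (plus strand) for *Mylip*, with the motifs in capitals, the wider DR4 match being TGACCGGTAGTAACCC.
Abca1: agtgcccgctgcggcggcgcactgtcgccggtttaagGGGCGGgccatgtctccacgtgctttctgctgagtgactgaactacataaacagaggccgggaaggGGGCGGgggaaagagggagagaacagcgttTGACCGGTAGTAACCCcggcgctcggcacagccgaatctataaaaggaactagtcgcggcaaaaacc
Mylip: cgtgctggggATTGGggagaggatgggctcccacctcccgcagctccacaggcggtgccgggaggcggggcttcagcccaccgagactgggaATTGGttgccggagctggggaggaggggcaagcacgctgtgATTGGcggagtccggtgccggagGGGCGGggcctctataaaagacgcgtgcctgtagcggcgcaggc

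Across the 32 genes, GA replicate 1 set much of the spread. It was the lowest library for 14 of them (43.8%), beside 38.8% of all tested genes, including all 5 SREBP control genes and all 4 transport genes, and the highest for 6, where it was the highest for 18.5% of all tested genes. Its deviation from the Ctrl mean fell with transcript length over the 32 genes (Pearson r -0.76, Spearman rho -0.74, given as a description over genes of 1 library). In GA replicates 2 and 3 the same r was -0.06 and -0.29. In GA replicate 1, the 16 genes longer than the median of 3046 nt had a median deviation of -0.13, with 14 of them below the Ctrl mean, against 0.05 for the 16 shorter genes. *Abca1* is the longest of the set, at 10262 nt, and *Mylip* has 3065 nt. With the length trend removed from each library, *Abca1* had a log2 fold change of -0.21 and *Mylip* -0.14.

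**Figure D4:**
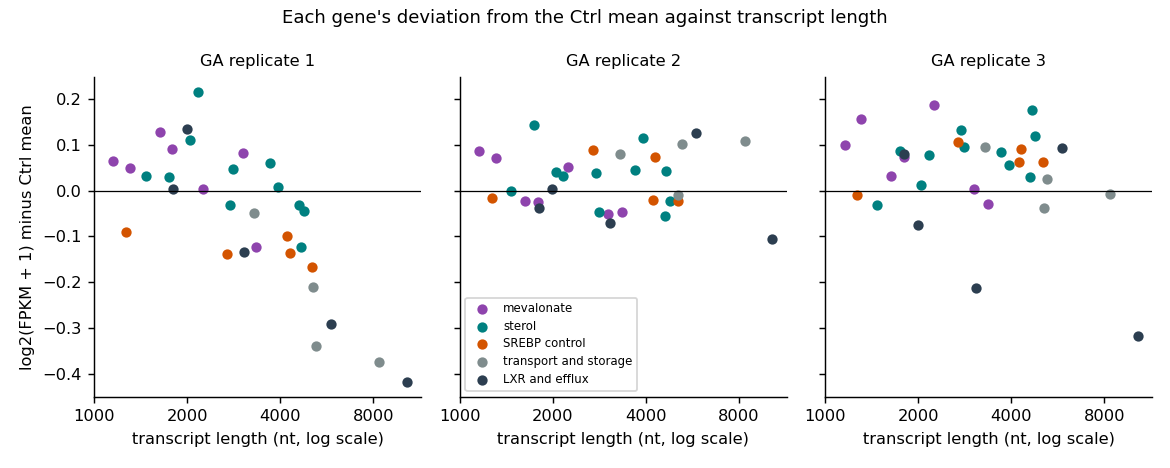
Deviation of each of the 32 genes from its Ctrl mean (log2(FPKM + 1)) against transcript length on a log axis, for GA replicates 1, 2 and 3, coloured by role. In GA replicate 1 the points descend with length (Pearson r -0.76), which they do less in replicate 2 (-0.06) and replicate 3 (-0.29), and *Abca1*, at 10262 nt, lies below 0 in all 3.

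Without GA replicate 1, limma called 114 genes (1.04% of 10912) and still 0 of the 32. At an unadjusted p under 0.05, 6 of the 32 were then higher in GA, where 15.0% of all tested genes were: *Acat2*, *Fdps*, *Insig1*, *Npc2*, *Ebp* and *Lss*, with log2 fold changes of 0.09 to 0.12. *Abca1* and *Mylip* were lower, where 6.05% of all tested genes were. The smallest Benjamini-Hochberg adjusted p from limma among the 32 was then 0.13, for *Fdps*. The median of the enzymes exceeded that of all genes by 0.01 without GA replicate 1 and by 0.03 with all libraries.

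Other genes of the same pathway were read from a list of 34 sterol handling genes, of which 30 were tested. Of these, 11 had a log2 fold change above 0 and 19 below, with a median of -0.02. At an unadjusted p under 0.05, 0 were higher and 1 was lower, where 8.88% and 4.63% of all tested genes were. The groups did not overlap for 2 higher and 3 lower genes of the 30, beside 11.6% and 8.29% of all tested genes. *Acat1* (the mitochondrial thiolase) had 27.44, 27.92 and 28.69 FPKM in GA, against 26.06, 27.05 and 25.43 FPKM in Ctrl. All its GA libraries lay above the Ctrl libraries, by a log2 fold change of 0.09 (limma with Benjamini-Hochberg adjusted p = 0.42). The groups were also separated for *Rnf139* (a ligase of the endoplasmic reticulum), which was higher, and for *Scarb1* (the HDL receptor) and *Erlin2* (a sterol-sensing membrane protein), which were lower, though none of these passed the test. *Apoe* (an acceptor of exported cholesterol) had a log2 fold change of 0.06 (limma with Benjamini-Hochberg adjusted p = 0.59), and its groups overlapped.

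Of 16 lipogenic targets of SREBP-1, 13 were tested, with 4 log2 fold changes above 0, 9 below, a median of -0.01 and 0 at an unadjusted p under 0.05. *Lpin1* (a phosphatidate phosphatase), *Scd2* (a stearoyl-CoA desaturase), *Me1* (malic enzyme) and *Fads2* (a fatty acid desaturase) had the smallest p values, with log2 fold changes of 0.11, -0.06, 0.06 and 0.05. Their limma p values after Benjamini-Hochberg adjustment ran from 0.58 to 0.76.

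No marker of mature cells passed the test, with a smallest limma Benjamini-Hochberg adjusted p of 0.1346. All 10 neutrophil markers had a log2 fold change above 0, where 5981 of all 10912 tested genes did, with a median of 0.23 and a sum of 1867 to 1968 FPKM in GA and 1511 to 1705 FPKM in Ctrl. Of the 13 megakaryocyte and platelet markers, 10 were below 0, where 4931 of all tested genes were, with a median of -0.12. Their part in the differences of *Abca1*, *Mylip* and *Fdps* was not tested. The 7 markers of stroma and fat summed to 24.38 to 25.79 FPKM in GA and 23.60 to 25.26 FPKM in Ctrl. Most of that sum was *Pparg*, at 22.16 to 24.58 FPKM over the 6 libraries, and *Col1a2* had 0.98 to 1.27 FPKM, whereas *Col1a1*, *Cxcl12*, *Lepr*, *Adipoq* and *Pdgfra* stayed at or under 0.21 FPKM.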

How the data were processed

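Total RNA was extracted with TRIzol from 3 GA and 3 Ctrl samples, and DNBSEQ libraries were read on the BGISEQ-500 platform. Per the submitters' processing notes and the methods, the authors filtered reads, used HISAT2 (2.0.4) and Bowtie2 (2.2.5) with mm10, and calculated expression with RSEM. The deposited values are FPKM per gene, with the authors' group means beside them, which were not used. FPKM divides by transcript length, so RNA or fragments that favour short transcripts raise short genes. Depth is unknown: only 36.4% to 38.7% of a library's low values came within 0.15 of a whole multiple of 1 fragment, so read counts could not be rebuilt and count models were not applied. No column of sample values was left without a sample (0).

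Of 18121 genes, 10912 averaged 1 FPKM or more across the 6 libraries and were tested with limma (3.58.1, R 4.3.3; mean-variance trend, two-sided) on log2(FPKM + 1), which understates changes of low genes, with Benjamini-Hochberg adjustment over all tested genes. Values of every library are given for genes at an unadjusted p under 0.05, genes whose groups do not overlap, the 5 highest means, the SREBP and LXR control genes, *Hmgcs1* and *Sqle*; companion lists give up to 4 genes with the smallest p. Genes and lists were chosen with earlier results of these data known. Transcript lengths were GENCODE vM21 medians (GRCm38), found for 98.23% of tested genes, and length trends were removed by loess (span 0.5). The script was tested on simulated data. The alternatives were other pseudocounts, filters, scalings and tests, length trend removal, a replicate block, and leaving out each library. The wider DR4 search was added after a sequence had been seen. No strand setting was given in the sources used here, so overlapping genes on opposite strands cannot be told apart. Some genes of the companion lists are not reported here.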

Additional observations from a re-analysis of the deposited data

How the results depend on the processing

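No cholesterol gene was called under any of the 17 alternatives, and *Abca1*, *Mylip* and *Fdps* kept their direction in all of them. The number of genes called over all genes, 0 in the main test, was 3 with libraries rescaled to 1000000, all lower in GA, and 0 to 114 with 1 library left out. It was 110 without GA replicate 1 and with the length trend removed together. The number of cholesterol genes at an unadjusted p under 0.05 was 0 to 6 higher and 1 to 2 lower with 1 library left out, and 1 higher (*Lss*) in that joint setting. Their median was -0.0386 when rescaled. Of 543 values of single genes, 483 kept their direction and side of the threshold and 60, over 21 genes, changed sign, for which the cause was not tested.

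Rescaling turned *Mvk* (-0.0114), *Mvd* (-0.0113), *Idi1* (-0.0468), *Sqle* (-0.0122), *Lss* (-0.0256), *Msmo1* (-0.00499), *Sc5d* (-0.0401), *Dhcr7* (-0.0266), *Insig1* (-0.0399), *Srebf1* (-0.0493), *Npc2* (-0.0162), *Nr1h2* (-0.0373) and *Nr1h3* (-0.0335). Removing the length trend turned *Mvk* (-0.00803), *Pmvk* (-0.00473), *Hsd17b7* (0.0119), *Scap* (0.00600), *Abcg1* (0.0218), *Nr1h2* (-0.0136) and *Nr1h3* (-0.0295). Doing so without GA replicate 1 turned *Mvk* (-0.0524), *Mvd* (-0.0274), *Idi1* (-0.0532), *Msmo1* (-0.0204), *Dhcr7* (-0.00740), *Srebf2* (0.0171), *Scap* (0.00942), *Npc1* (0.0616), *Soat1* (0.0645), *Abcg1* (0.111), *Nr1h2* (-0.0830) and *Nr1h3* (-0.0316).

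With 1 library left out in turn, these log2 fold changes crossed 0, with ranges of *Idi1* -0.0243 to 0.0425, *Lss* -0.0398 to 0.109, *Tm7sf2* -0.0219 to 0.0184, *Hsd17b7* -0.0443 to 0.0212, *Sc5d* -0.0336 to 0.0773, *Dhcr7* -0.00517 to 0.0807, *Insig1* -0.0256 to 0.0965, *Srebf1* -0.032 to 0.0823, *Srebf2* -0.0951 to 0.0196, *Scap* -0.06 to 0.0211, *Npc1* -0.157 to 0.0629, *Soat1* -0.191 to 0.0506, *Abcg1* -0.0994 to 0.108, *Nr1h2* -0.0359 to 0.0696 and *Nr1h3* -0.06 to 0.101.

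After each group was centred on its mean, libraries with equal replicate numbers had correlations of -0.17, -0.13 and 0.00. Centring ties such values together with only 3 libraries in a group. They cannot show whether libraries were paired, and the labels do not say. With a replicate block, 0 genes were called, and *Abca1* had -0.281 (limma with Benjamini-Hochberg adjusted p = 0.38). The 3 libraries of each group and an unknown depth limit the precision, and differences inside the intervals given for each gene were not resolved.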
